A study of Mus musculus with 4 samples.

Results

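The genes described here build and run the gene expression machinery of mitochondria: mitochondrial ribosomal proteins, protein import components, translation factors and a factor for mitochondrial rRNA. They were taken by gene symbol, as every symbol that starts like the mouse genes of these families and is listed in the deposited tables. This gave 36 of 3117 genes, and all 36 were listed for both gene ends. They comprise 15 genes of the large mitochondrial ribosomal subunit (MRPL), 7 of the small subunit (MRPS), 8 of the inner membrane and intermembrane space import machinery (TIMM), and TOMM70A, GFM2, MTIF2 and TFB1M. The symbol rule also took TIMMDC1, an assembly factor of respiratory complex I, and TOMM6OS, an antisense transcript of the outer membrane gene Tomm6. Neither is an import protein. Both are left out of the TIMM class but are counted among the 36 genes, called the mitochondrial genes below.

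Mitochondria keep a small genome of their own, but nearly every protein that copies, transcribes and translates it is encoded in the nucleus and made in the cytosol. Such proteins enter through the translocase of the outer membrane (TOM) and are passed on by small chaperones and translocases of the inner membrane (TIM). Inside, the mitochondrial ribosome makes core subunits of the respiratory chain, so nuclear transcription of these genes sets part of the supply for oxidative phosphorylation. All genes described here are transcribed by RNA polymerase II (Pol II), whose carboxy-terminal domain carries phosphorylated serine 2 (Ser2P) mainly on polymerase that is elongating and approaching the gene end.

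The assay was mNET-seq (mammalian native elongating transcript sequencing): nuclease-treated chromatin is immunoprecipitated for Pol II, and the short RNA held by the enzyme is sequenced. The cells were B16F10, an established mouse melanoma line. They were either unmodified (control) or knocked out for Carm1, an arginine methyltransferase and transcriptional coactivator (Carm1 KO), and no treatment was given. Each genotype had 1 library made with a Ser2P antibody and 1 made with the 8WG16 antibody against the Pol II domain, and each library pooled 3 sets of cells. Whether the knockout cells are 1 clone is not given in the sources used here, and Carm1 itself was not analysed here. Of 10 melanocyte genes checked, 6 were listed (MC1R, MLANA, PMEL, SOX10, TYR and TYRP1), and of 6 markers of other cells 0 were. Since the tables hold ratios, being listed is not a level of expression.

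The authors deposited a Ser2P ratio per gene and genotype, at the transcription start site (TSS) and the transcription end site (TES). The sources used here do not give the divisor of the ratio, the window width or the scale between libraries, and read depth is unknown. A change is log2(Carm1 KO / control) of the ratio, and a gene was counted as higher or lower when the ratio differed at least 1.5-fold (0.58 on the log2 scale). There was 1 pooled library per group, hence no replicate error and no test, and every value describes these libraries alone. Because a difference in library scale would move all genes together, changes are also given relative to the median of all genes, which was 1.17 at the TSS and 0.85 at the TES. The ratios are coarse. Among these genes 12 control and 19 Carm1 KO TSS ratios above 0 were exactly those of another gene, as were 5 and 9 TES ratios.

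Most of the mitochondrial genes had a higher TSS ratio without Carm1, but they were spread widely around the middle of all genes. The 36 genes had medians of 0.102 (control) and 0.217 (Carm1 KO), against 0.0809 and 0.166 for all listed genes. Of 33 genes above 0 in both genotypes, 19 (57.6%) were higher in Carm1 KO cells, where 71.2 percent of all genes compared were, and 3 (9.09%) were lower, where 5.6 percent were. Their median change was 0.98, or 1.97-fold. Relative to the median of all genes, 14 were higher and 14 were lower, where 28.6 percent and 28.8 percent of all genes were. Thus 28 of 33 (84.8%) lay past the threshold on either side, against 57.4% of all genes. The interquartile range of the change was 2.14 for these genes and 1.43 for all genes, on the log2 scale. In related lists described further on it was 2.05 for mitochondrial aminoacyl-tRNA synthetases and 1.85 for oxidative phosphorylation subunits. It was 1.45 for RNA processing and DNA maintenance genes, 1.22 for import motors and chaperones, 1.08 for cytosolic ribosomal proteins, 0.83 for mitoribosome assembly factors and 0.77 for regulators. The 3 lower genes were MRPL50, TIMM17A and MRPL1, and the largest changes upward were at MRPL46, MRPL33 and TIMM8B. By class, the ribosomal protein genes had a median change of 0.49 over 19 genes, with 9 higher and 2 lower. The 8 TIMM genes had a median of 1.86, with 6 higher and 1 lower. The classes differ in number and in gene surroundings, and the difference between them was not tested. Without genes whose ratio another gene shares exactly, 11 genes were left, with a median of 1.78, 10 higher and 0 lower. All genes left by the same filter had a median of 1.21, with 77.5% higher. These 11 include 7 that start close behind another gene and have high TSS ratios, described further on. The direction of the majority rests on the scale between libraries: with each column divided by its commonest TES ratio, a scale chosen after the data were seen, the median became -0.41 for these genes and -0.22 for all genes.

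**Figure D1:**
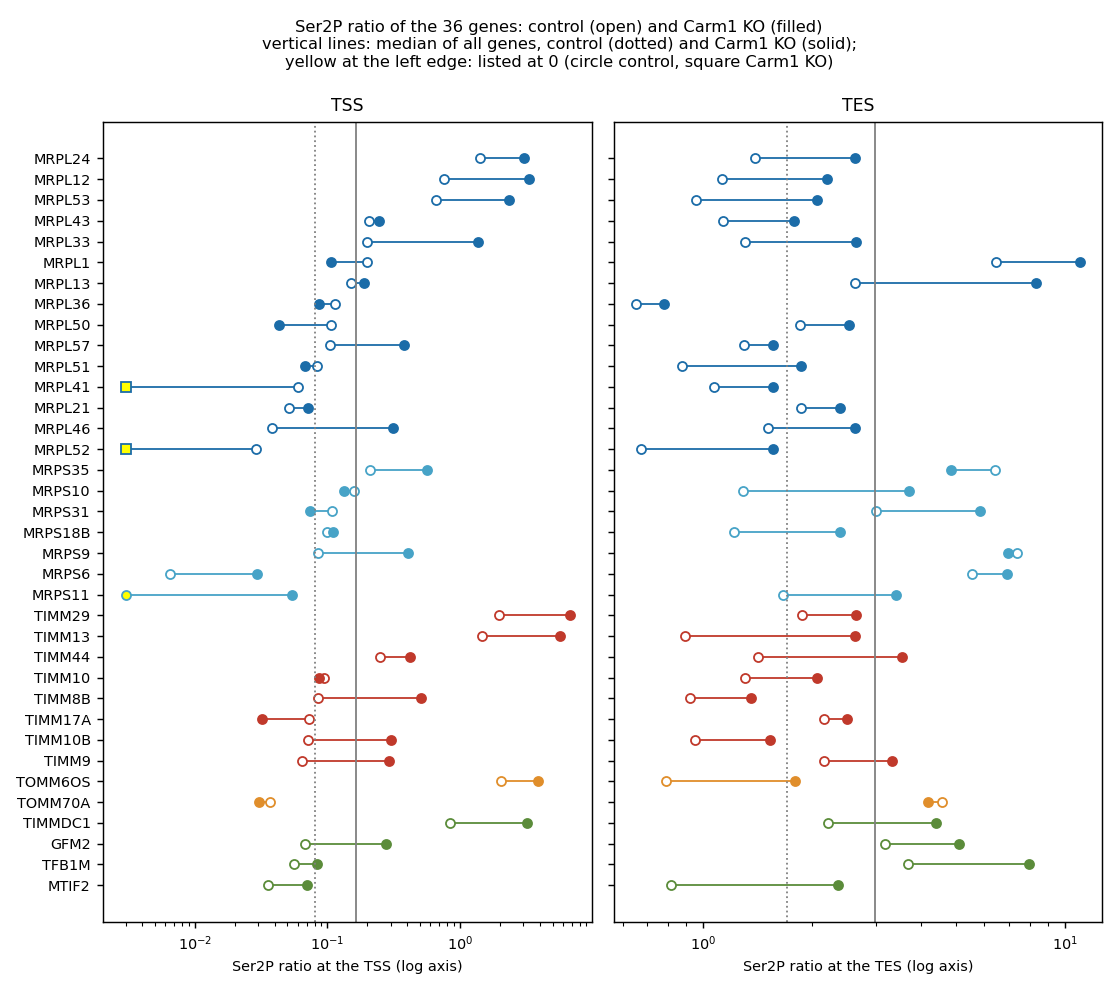
Ser2P ratio (log axis) of each of the 36 genes at the TSS and the TES, with control (open) and Carm1 KO (filled) values joined by a line, genes grouped by class and the median of all genes as vertical lines; ratios listed at 0 are drawn at the left edge. TSS ratios run over a wide range, with TIMM29, TIMM13 and TOMM6OS far to the right, whereas TES ratios lie closer together.

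**Figure D2:**
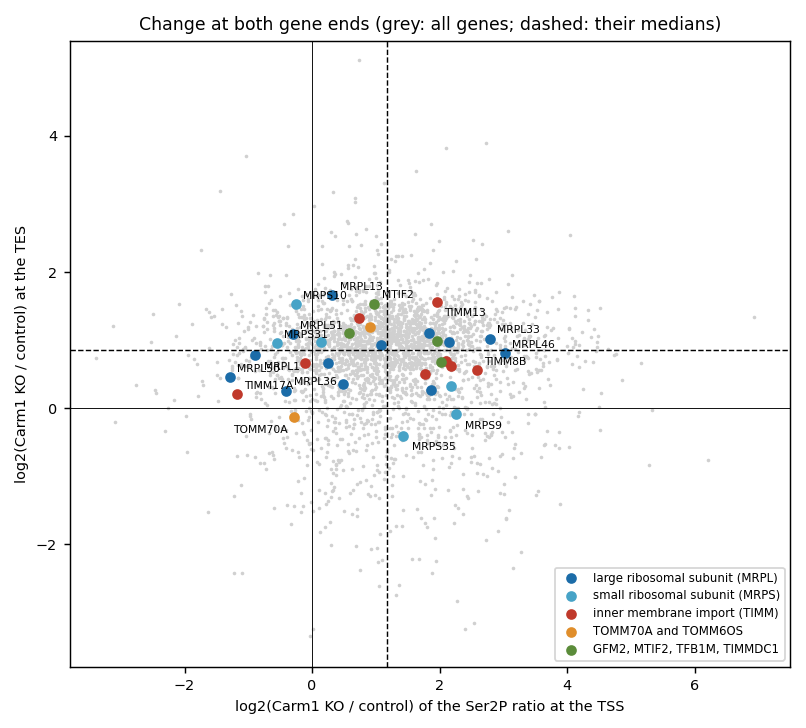
Log2(Carm1 KO / control) of the Ser2P ratio at the TSS (horizontal) and the TES (vertical) for the 33 genes compared at both ends, coloured by class, over all other genes in grey; dashed lines are the medians of all genes, 1.17 and 0.85. The coloured points spread along the TSS axis on both sides of the dashed line and stay in a narrow band along the TES axis.

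The level of the TSS ratio went with the position of the gene upstream. In GENCODE annotation of GRCm38, 7 of the 36 genes start within 5 kb downstream of the end of a protein-coding gene on the same strand. These 7 had the 7 highest TSS ratios of the 36 in control cells and also the 7 highest in Carm1 KO cells. The window of 5 kb was chosen after these values had been seen. TIMM29, which encodes a subunit of the TIM22 translocase for carrier proteins, lies at chr9:21592722-21595970 on the plus strand. It starts 99 bp after the annotated end of Carm1, the gene that was knocked out, and its TSS ratios were 1.97 (control) and 6.74 (Carm1 KO). Whether the edit of Carm1 bears on the ratio at TIMM29 was not tested. TIMM13, a small chaperone of the intermembrane space, starts 234 bp after Lmnb2 and had TSS ratios of 1.46 and 5.66. MRPL12, a large subunit protein, starts 629 bp after Hgs and had ratios of 0.753 and 3.34. MRPL53, also of the large subunit, starts 646 bp after Ccdc142 and had ratios of 0.664 and 2.36.

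TOMM6OS starts 872 bp after Usp49 and overlaps Tomm6 on the opposite strand; its TSS ratio was 2.06 in control, the highest of the 36, and 3.87 in Carm1 KO cells. Strand use in the counting is not given in the sources used here, so reads of TOMM6OS and Tomm6 cannot be told apart. TIMMDC1 starts 2474 bp after Poglut1 and had TSS ratios of 0.836 and 3.24. MRPL24, a large subunit gene named here for its position, starts 3374 bp after Hdgf and had ratios of 1.43 and 3.04. The next nearest were GFM2 at 6924 bp, MRPS35 at 8519 bp and TIMM44 at 9469 bp, whose control TSS ratios were 0.0678, 0.210 and 0.251. The upstream genes of these 7 were not analysed here, so their own end ratios cannot be set beside the values.

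As a group, the 7 genes had median TSS ratios of 1.43 (control) and 3.34 (Carm1 KO), against 0.0849 and 0.106 for the other 29. All 7 passed the threshold upward, with a median change of 1.83. Of the 26 others compared, 12 (46.2%) were higher and 3 (11.5%) lower, with a median of 0.53. Over all annotated genes the same split gave median control ratios of 0.522 for 540 genes within 5 kb and 0.0695 for 2538 others, with median changes of 1.49 and 1.05. Of all genes within 5 kb 91.3% were higher, a share near that of the 7, and of the others 66.8% were higher and 6.41% lower. The height of the TSS ratio near an upstream gene end was thus shared by genes of the whole table. Reads of the upstream transcript and of the named gene cannot be told apart in these tables.

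**Figure D3:**
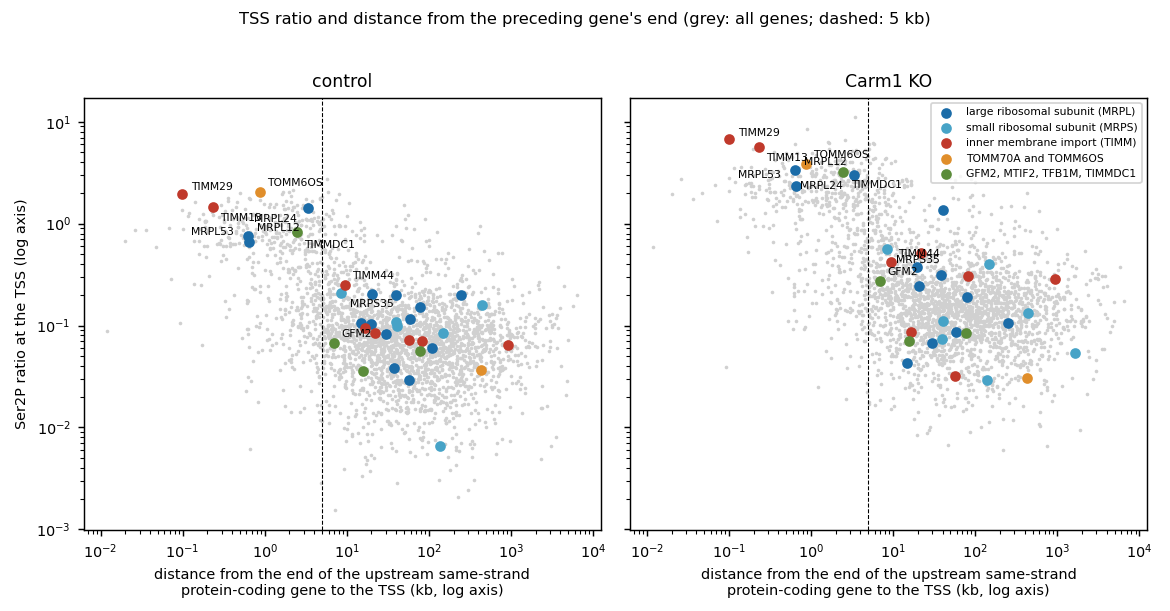
TSS Ser2P ratio (log axis) against the distance from the end of the nearest upstream protein-coding gene on the same strand (kb, log axis) in control (left) and Carm1 KO cells (right), for the mitochondrial genes by class and all genes in grey; the dashed line marks 5 kb, and genes at a ratio of 0 or with no such distance are not drawn. The 7 coloured points left of the line lie above every coloured point right of it in both panels.

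Promoter sequences are shown for the genes at the extremes of the TSS change, MRPL46 and MRPL33 with the largest changes upward and MRPL50 and TIMM17A with the lowest, and for MRPL52 and MRPL57, whose promoters, like that of TIMM8B, held matches to 2 of the searched motifs. They are RefSeq sequences of GRCm38.p6 from 250 bases before to 50 after the annotated start, 5′ to 3′ on the gene's strand. Capitals mark matches to 4 motifs searched on both strands: CCGGAAG (the ETS core, bound by factors such as GABP), GCGC followed by any base and TGCGC (NRF1, the nuclear respiratory factor), AAGATGG (YY1) and TATAAA (the TATA box).
MRPL46: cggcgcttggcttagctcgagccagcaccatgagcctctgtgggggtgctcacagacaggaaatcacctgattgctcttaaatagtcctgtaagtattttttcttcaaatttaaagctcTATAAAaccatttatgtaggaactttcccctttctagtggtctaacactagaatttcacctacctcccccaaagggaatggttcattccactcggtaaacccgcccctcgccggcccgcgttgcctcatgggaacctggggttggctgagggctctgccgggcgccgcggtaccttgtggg
MRPL33: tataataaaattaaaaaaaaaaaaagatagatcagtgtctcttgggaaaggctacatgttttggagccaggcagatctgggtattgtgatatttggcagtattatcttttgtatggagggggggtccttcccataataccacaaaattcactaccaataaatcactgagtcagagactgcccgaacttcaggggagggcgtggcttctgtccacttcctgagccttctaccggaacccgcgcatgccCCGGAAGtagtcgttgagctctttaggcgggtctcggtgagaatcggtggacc
MRPL50: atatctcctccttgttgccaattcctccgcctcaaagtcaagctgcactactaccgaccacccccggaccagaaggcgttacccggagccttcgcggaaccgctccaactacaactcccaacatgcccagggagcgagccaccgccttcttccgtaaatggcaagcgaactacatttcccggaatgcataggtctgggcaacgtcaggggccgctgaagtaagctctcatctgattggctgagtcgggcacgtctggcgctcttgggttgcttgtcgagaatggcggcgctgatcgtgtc
TIMM17A: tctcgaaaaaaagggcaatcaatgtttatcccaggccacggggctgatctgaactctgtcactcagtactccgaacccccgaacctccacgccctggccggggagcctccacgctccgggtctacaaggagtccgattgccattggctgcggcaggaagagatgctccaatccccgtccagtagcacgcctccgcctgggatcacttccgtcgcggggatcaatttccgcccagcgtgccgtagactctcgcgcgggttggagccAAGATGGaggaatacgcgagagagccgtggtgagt
MRPL52: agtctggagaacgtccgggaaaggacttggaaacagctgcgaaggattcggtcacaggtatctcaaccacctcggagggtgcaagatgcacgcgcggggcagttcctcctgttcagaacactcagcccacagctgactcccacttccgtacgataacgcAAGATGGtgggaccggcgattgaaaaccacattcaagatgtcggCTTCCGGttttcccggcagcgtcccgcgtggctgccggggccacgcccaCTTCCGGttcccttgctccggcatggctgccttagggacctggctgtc
MRPL57: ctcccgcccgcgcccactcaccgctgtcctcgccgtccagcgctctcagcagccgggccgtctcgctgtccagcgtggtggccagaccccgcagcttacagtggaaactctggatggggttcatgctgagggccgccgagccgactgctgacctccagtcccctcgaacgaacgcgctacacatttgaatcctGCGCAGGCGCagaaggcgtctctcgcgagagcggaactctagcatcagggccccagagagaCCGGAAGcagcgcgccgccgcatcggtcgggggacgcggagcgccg
The windows are chr7:78783040-78783339 (minus strand), chr5:31613701-31614000 (plus), chr4:49521034-49521333 (minus), chr1:135313688-135313987 (minus), chr14:54426659-54426958 (plus) and chr14:57825989-57826288 (plus). MRPL46 held only a TATAAA match, 125 bases before its RefSeq start at the nearest. MRPL33 held an ETS match across its start, MRPL50 none of the 4 and TIMM17A a YY1 match. MRPL52 held a YY1 match and ETS matches, and MRPL57 an NRF1 match and an ETS match. No motif was common to the 2 genes with the largest changes or to the 2 with the lowest. The RefSeq start of MRPL33 lies 17016 bp downstream of the outermost GENCODE start, and that of MRPL46 442 bp downstream. Both GENCODE starts lie outside the windows shown, so the TSS of the deposited table may be another one.

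A RefSeq promoter was matched for 34 of the 36 genes. The ETS core was found in 15 of these 34 (44.1%), in 25.1% of promoters of all genes in the tables and in 8.86% of all RefSeq promoters. The NRF1 motif was found in 5 (14.7%, against 11.9% and 4.60%). The YY1 motif was found in 4 (11.8%, against 9.30% and 6.34%), and TATAAA in 2 (5.88%, against 6.54% and 13.6%). The TATAAA matches lay 125 bases before the start at MRPL46 and 198 bases before it, on the opposite strand, at TIMM13. ETS, NRF1 and YY1 sites are textbook features of nuclear genes for mitochondrial proteins. A match describes letters only and does not show that a factor was bound.

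Among the 15 large subunit genes, 13 could be compared at the TSS and had a median change of 0.49, with 6 higher and 2 lower. With the control ratio given before that of Carm1 KO cells, MRPL46 had TSS ratios of 0.0384 and 0.312 and TES ratios of 1.51 and 2.64. Its TSS change of 3.02 was the largest of all 36 genes, and it began from one of the lower control ratios. MRPL33 had TSS ratios of 0.200 and 1.38 and TES ratios of 1.30 and 2.65, with changes of 2.78 and 1.02. MRPL12, one of the genes close behind another, changed by 2.15 at the TSS, and from 1.13 to 2.20 (0.97) at the TES. MRPL50 went the other way at its start, with TSS ratios of 0.106 and 0.0433 (-1.29), while its TES ratios were 1.85 and 2.54 (0.45). MRPL1 had TSS ratios of 0.198 and 0.106 and TES ratios of 6.45 and 11.0. It was the only one of the 33 genes past the threshold in opposite directions at its ends, by -0.90 at the TSS and 0.78 at the TES. Of all genes compared at both ends, 222 of 2775 were. The TSS ratios of MRPL1 were shared by 2 genes in control and 6 genes in Carm1 KO cells. MRPL36, a small protein of the large subunit, had TSS ratios of 0.115 and 0.0870 (-0.40) and TES ratios of 0.653 and 0.780 (0.26), so it passed the threshold at neither end.

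MRPL13 had the largest TES change of the 36 genes. Its TES ratio went from 2.63 to 8.31 (1.66), and its TSS ratio was 0.152 and 0.189 (0.32). MRPL41 and MRPL52 were listed at 0 at the TSS in Carm1 KO cells, with control ratios of 0.0605 and 0.0290, so they have no TSS change. At the TES MRPL52 had ratios of 0.673 and 1.57 (1.22) and MRPL41 of 1.07 and 1.56 (0.54). MRPL53 changed by 1.83 at the TSS, and at the TES had ratios of 0.957 and 2.06 (1.11). MRPL57 had TSS ratios of 0.104 and 0.379 (1.86) and TES ratios of 1.30 and 1.57 (0.27). MRPL21 had TSS ratios of 0.0510 and 0.0716 (0.49) and TES ratios of 1.86 and 2.39 (0.36). At the TES 10 of 15 large subunit genes were higher and 0 lower, close to the 66.7% and 7.13% of all genes, with changes from 0.26 to 1.66 and a median of 0.80.

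The 7 small subunit genes split by length at the TES. MRPS35, MRPS9 and MRPS6 are long genes of 31228, 54451 and 53958 bp, with control TES ratios of 6.43, 7.40 and 5.54 and Carm1 KO ratios of 4.86, 6.95 and 6.93. Their TES changes of -0.40, -0.09 and 0.32 were the lowest of the class. At the TSS these 3 had the largest changes of the class: MRPS35 went from 0.210 to 0.565 (1.42), MRPS9 from 0.0849 to 0.404 (2.25) and MRPS6 from 0.00651 to 0.0294 (2.18). The control TSS ratio of MRPS6 was the lowest above 0 of the 36 genes. MRPS10 showed the reverse, with TSS ratios of 0.159 and 0.134 (-0.25) and TES ratios of 1.29 and 3.72 (1.53). Its Carm1 KO TSS ratio was shared by 26 genes. MRPS31 had TSS ratios of 0.109 and 0.0746 (-0.55) and TES ratios of 3.01 and 5.83 (0.95). MRPS18B had TSS ratios of 0.0997 and 0.110 (0.14) and TES ratios of 1.22 and 2.40 (0.98). MRPS11 was listed at 0 at the TSS in control and at 0.0537 in Carm1 KO cells, so it has no TSS change, and its TES ratio was 1.66 and 3.42 (1.04). At the TES 4 of 7 were higher and 0 lower, where 66.7% and 7.13% of all genes were.

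The import genes encode small chaperones that carry proteins across the intermembrane space (TIMM8B, TIMM9, TIMM10, TIMM10B and TIMM13) and parts of the inner membrane translocases (TIMM17A, TIMM29 and TIMM44). Relative to the median of all genes, 5 of the 8 were higher and 2 lower at the TSS, where 28.6% and 28.8% of all genes were. TIMM8B had TSS ratios of 0.0851 and 0.511 (2.59) and TES ratios of 0.921 and 1.36 (0.56). TIMM9, which assembles with TIMM10 into a hexameric chaperone, had TSS ratios of 0.0640 and 0.289 (2.18) and TES ratios of 2.17 and 3.34 (0.62). TIMM10 itself had TSS ratios of 0.0939 and 0.0866 (-0.12) and TES ratios of 1.30 and 2.07 (0.67). TIMM9 and TIMM10 thus had unlike changes at the start, where their Carm1 KO ratios were shared by 3 and 6 genes. Their changes at the end were similar, and both lay below the median of all genes, 0.85. TIMM10B had TSS ratios of 0.0709 and 0.304 (2.10) and TES ratios of 0.949 and 1.53 (0.69). TIMM13 changed by 1.95 at the TSS and had TES ratios of 0.893 and 2.63 (1.56), the largest TES change among the import genes.

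In the translocases, TIMM17A, a core subunit of the TIM23 channel, had TSS ratios of 0.0723 and 0.0320 (-1.18) and TES ratios of 2.16 and 2.50 (0.21). It was the only TIMM gene past the threshold downward at the TSS, and its Carm1 KO TSS ratio lay at percentile 10.5 of all genes. TIMM44, which ties the import motor to that channel, had TSS ratios of 0.251 and 0.417 (0.73) and TES ratios of 1.42 and 3.55 (1.32). TIMM29 changed by 1.78 at the TSS, where it had the highest Carm1 KO ratio of the 36 genes, and from 1.87 to 2.65 (0.50) at the TES. At the TES 5 of the 8 import genes were higher and 0 lower, where 66.7% and 7.13% of all genes were, with a median of 0.64. TIMMDC1, the complex I assembly factor, changed by 1.95 at the TSS and had TES ratios of 2.22 and 4.40 (0.99).

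The outer membrane receptor TOMM70A, which docks preproteins brought by cytosolic chaperones, passed the threshold at neither end. Its TSS ratios were 0.0369 in control and 0.0305 in Carm1 KO cells (-0.28) and its TES ratios 4.58 and 4.19 (-0.13). The antisense transcript TOMM6OS changed by 0.91 at the TSS and had TES ratios of 0.791 and 1.80 (1.19). GFM2, a GTPase that recycles mitochondrial ribosomes after termination, had TSS ratios of 0.0678 and 0.275 (2.02) and TES ratios of 3.19 and 5.10 (0.68). MTIF2, the initiation factor that brings the first tRNA to the mitochondrial ribosome, had TSS ratios of 0.0355 and 0.0697 (0.98) and TES ratios of 0.816 and 2.36 (1.53). TFB1M, which dimethylates the small rRNA of the mitochondrial ribosome, had TSS ratios of 0.0562 and 0.0839 and TES ratios of 3.69 and 7.95. Its TSS change of 1.49-fold fell just short of the threshold, and its TES change was 1.11.

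At the TES the mitochondrial genes were closer together than at the TSS. Their median ratios were 1.40 (control) and 2.63 (Carm1 KO), against 1.71 and 2.99 for all listed genes. Of the 36 genes 24 were higher in Carm1 KO cells, a share of 66.7 percent, and 66.7 percent of all genes compared were. None was lower (0 of 36), where 7.13 percent of all genes were. The median change was 0.79, or 1.73-fold, against 0.85 for all genes. Above 0 lay 33 of 36, and 2541 of 3016 of all genes compared (84.3%). Relative to the median of all genes 4 were higher and 5 lower, where 11.6 percent and 22 percent of all genes were. The interquartile range of the TES change was 0.60 for these genes and 0.83 for all genes. The 4 above that margin were MRPL13, TIMM13, MTIF2 and MRPS10. With each column divided by its commonest TES ratio, the median became -0.60 for these genes and -0.53 for all genes.

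Gene length went with the TES change. The median length of the mitochondrial genes was 9185 bp, against 18046 bp for all annotated genes. When all genes were put in 10 groups of equal number by length, 8 of the 36 fell in the 4 longer groups, from 24939 bp. Their median TES change was 0.50, and they hold all 3 genes below 0, MRPS35, TOMM70A and MRPS9. The 28 in the shorter groups had a median of 0.94, and 28 of 28 lay above 0. For all genes the medians were 0.41 in the longer groups, with 797 of 1191 above 0, and 0.97 in the shorter groups, with 1713 of 1787 above 0. The TES ratio itself went with length too. Its control median in the shorter groups was 1.30 for the mitochondrial genes and 1.23 for all genes, and in the longer groups 5.06 and 3.63. Of the 8 long genes 4 passed the threshold upward at the TES: MRPL33 (67450 bp), MRPL1 (57235 bp), GFM2 (43259 bp) and TFB1M (38526 bp). Of all genes in the longer groups 525 of 1191 (44.1%) did so, a share near that of the 8. Downward it was passed by 0 of the 8 and by 191 of the 1191.

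**Figure D4:**
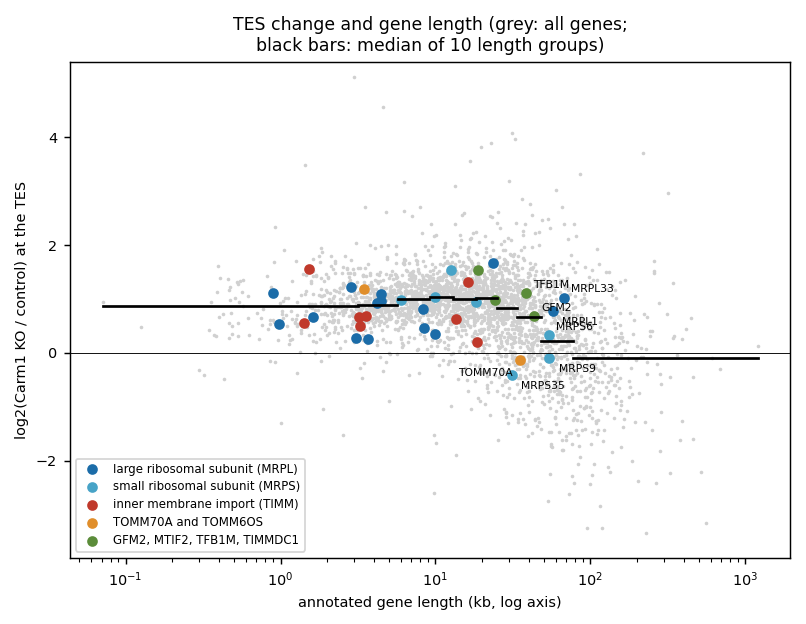
Log2(Carm1 KO / control) of the TES Ser2P ratio against gene length (kb, log axis) for the 36 genes by class and all genes in grey, with the median of each of 10 length groups of all genes. The median line drops toward the longest genes, and MRPS35, MRPS9 and TOMM70A are the coloured points below 0.

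The ratio of TES to TSS value describes how the Ser2P ratio grows along a gene. Over the 33 genes above 0 in all 4 columns its median was 13.4 times in control and 11.5 times in Carm1 KO cells, against 19.5 and 15.7 times for all genes. This ratio also went with gene length. In the shorter length groups its medians were 10.8 and 8.51 times for these genes, against 11.9 and 11.7 times for all genes. In the longer groups they were 55.6 and 41.9 times, against 48.5 and 26.8 times. MRPS6 had the steepest values, 852 times in control and 236 in Carm1 KO cells. TOMM70A followed with 124 and 137 times. At the other end the order was inverted: MRPL24, TIMM13, TIMM29 and TOMM6OS had a higher ratio at the TSS than at the TES in control cells. These are 4 of 33 (12.1%), where 2.99 percent of all genes were inverted. In Carm1 KO cells MRPL12 and MRPL53 joined them, giving 6 of 33 (18.2%), where 6.16 percent of all genes were. All 6 are among the 7 genes that start within 5 kb of an upstream gene end, and 0 of the 26 others were inverted in either genotype. Over all genes the same split gave 13.2% (control) and 25.1% (Carm1 KO) inverted within 5 kb. Of the genes farther away 0.495% and 1.80% were inverted, so few are found there in the whole table. Without the 7 mitochondrial genes near an upstream end, the median TES ratio was 20.1 times the TSS ratio in control and 22.9 times in Carm1 KO cells. For all genes farther than 5 kb from an upstream end it was 26.7 and 21.1 times.

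The growth along the gene was smaller in Carm1 KO cells for 17 genes and larger for 16, while over all genes it was smaller for 1759 and larger for 1016 of 2775. MRPL33 went from 6.53 to 1.92 times, TIMM8B from 10.8 to 2.65, MRPS9 from 87.1 to 17.2 and MRPL46 from 39.4 to 8.45. In the other direction MRPS10 went from 8.09 to 27.7 times, MRPL50 from 17.5 to 58.6 and MRPL1 from 32.6 to 104. A scale difference common to both ends of a library leaves these values as they are.

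**Figure D5:**
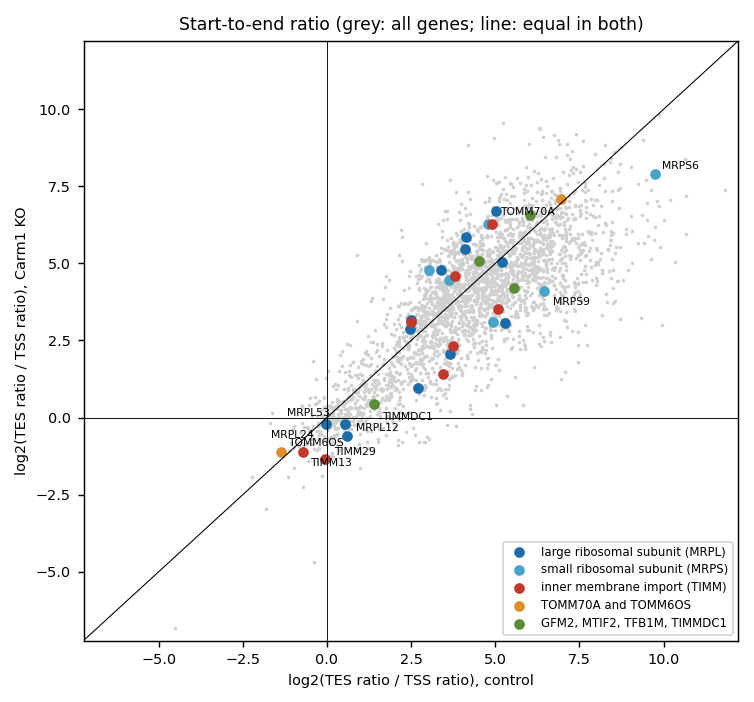
Log2(TES ratio / TSS ratio) in Carm1 KO (vertical) against control cells (horizontal) for the 33 genes above 0 in all 4 columns, by class, over all genes in grey; the diagonal marks equal values. The 6 genes below 0 on the vertical axis sit in the lower left, with TIMMDC1 (1.41 in control and 0.44 in Carm1 KO) as the nearest other coloured point. The other coloured points lie on both sides of the diagonal.

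Many of these genes share a promoter region with a gene on the other strand. A head-to-head start within 1 kb was annotated for 19 of 36 (52.8%), against 36.5% of all genes. The 19 had a median TSS change of 0.91 over 17 compared, and the 17 others 1.03 over 16. MRPL46 and MRPS11, a large and a small subunit gene, face each other on chromosome 7, and their bodies overlap by 413 bp in GENCODE annotation. The RefSeq start of MRPL46 lies 442 bp downstream of its GENCODE start, which is beyond that overlap. Both genes had a low control TSS ratio, 0.0384 and 0, and a higher one in Carm1 KO cells, 0.312 and 0.0537. Of 13 such pairs with both genes in the tables, 9 could be compared at the TSS. Both genes were at least 1.5-fold higher in 2 pairs, only the mitochondrial gene in 3, only its partner in 2 and neither in 2. Of all genes compared at the TSS, 71.2% were higher, and whether the genes of a pair change together was not tested. The partners are named after their values were seen. TIMM8B and SDHD, a subunit of succinate dehydrogenase, were both higher, with 2.03 at SDHD, as were MRPL57 and SKA3 (2.74). GFM2 changed by 2.02, while its partner NSA2 went from 0.114 to 0.0790 (-0.53). TIMM9 changed by 2.18 and 2700049A03RIK by -0.70, and TIMM10B by 2.10 and ARFIP2 by -0.10. The reverse held for MRPL21 (0.49) with IGHMBP2 (3.71), the widest gap of the 9, and MRPL13 (0.32) with MTBP (2.28). MRPS18B (0.14) with PPP1R10 (-0.059) and MRPL51 (-0.30) with NCAPD2 (0.17) passed the threshold in neither gene. Windows of head-to-head genes may overlap, and without strand reads of partners cannot be told apart.

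Other genes of mitochondrial gene expression were taken from lists of known members. Their counts stand against 71.2% of all genes higher and 5.6% lower at the TSS. The TES shares were 66.7% and 7.13%, and several lists are near these shares. Of 36 mitoribosome assembly and rRNA modification factors 14 were listed, and at the TSS 12 were higher and 1 lower, with a median change of 1.88. FASTKD5, which processes mitochondrial transcripts, went from 0.154 to 2.59 (4.08) and the ribosome GTPase MTG1 from 0.123 to 0.972 (2.99). PTCD3, a small subunit protein with RNA-binding repeats, went from 0.141 to 0.0660 (-1.10). At the TES 11 of 14 were higher and 0 lower, with a median of 0.86, led by the rRNA methyltransferase NSUN4 (from 1.31 to 5.84). Import motors, peptidases, sorting and chaperones had 13 of 23 listed, with 8 of 11 higher and 1 lower at the TSS (median 1.36) and 11 of 13 higher and 1 lower at the TES (median 1.03). In this list AGK, an acylglycerol kinase that is also part of the TIM22 translocase with TIMM29, changed by 2.91 at the TSS and -0.93 at the TES. GRPEL1, the nucleotide exchange factor of the import motor, changed by -0.75 at the TSS. RNA processing, tRNA modification and mitochondrial DNA maintenance genes had 5 of 9 higher and 0 lower at the TSS (median 1.14) and 8 of 10 higher and 1 lower at the TES (median 1.03).

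Mitochondrial aminoacyl-tRNA synthetases had a median TSS change of 0.05 over 9 genes, 4 of them higher and 3 lower. VARS2 went from 0.254 to 1.39. At the TES 5 of 8 were higher and 2 lower, with a median of 0.94. Regulators of mitochondrial genes had 4 of 5 higher and 0 lower at the TSS (median 1.05), and 5 of 6 higher and 0 lower at the TES (median 0.83). Among them GABPA, the ETS factor that binds many such promoters, went from 0.0506 to 0.0866 at the TSS and from 2.79 to 7.17 at the TES. For comparison, 30 oxidative phosphorylation subunit genes had a median TSS change of 1.70 and 74 cytosolic ribosomal protein genes of 0.76. The mitochondrial ribosomal protein genes, at 0.49, lay below both. At the TES the medians were 0.88 and 0.80, and 0.86 for the mitochondrial ribosomal proteins. All lists come from the same 4 ratio columns, and no difference between lists was tested.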

How the data were processed

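Symbols matching the names of the families were taken from both deposited tables, and each deposited value is a linear ratio, called a Ser2 fraction per the file headers although it exceeds 1. Columns were assigned to control or Carm1 KO by their names. The builds mm10 and GRCm38 and the tools TopHat2 2.1.1 and cutadapt 1.18 are named, without settings, per the submitters' processing notes. The sources used here do not give strand use, windows, divisor or scaling. The RNA fragments sequenced were 23 to 123 bp long, per the labels' protocols.

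Changes were computed as log2(Carm1 KO / control) without a pseudocount, and genes at 0 in either column were left out (2859 TSS and 3016 TES changes remained). Calculations used Python 3.11.15, pandas 2.3.3 and numpy 2.4.6, and were tested on simulated data. Of 3117 symbols, 3071 matched GENCODE M21 genes by symbol and 7 by a RefSeq synonym, 6 matched several genes and 33 matched none. All 36 genes described matched. Every gene outside the MRPL and MRPS classes was named. Of each of these classes the 3 largest changes each way at each end, every gene lower, opposite between ends or at 0 were named, and of other lists only genes among the 2 largest changes each way at each end. Members and lists were chosen with earlier results of these data known. No leave-one-out or paired fit applies with 1 library per group. Alternatives covered the threshold, scaling, length, low, shared and 0 values, and gene neighbours.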

Additional observations from a re-analysis of the deposited data

How the results depend on the processing

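The median changes and the number of genes called were recomputed under each alternative; the cause of each shift was not tested. No paired analysis was possible because each group holds 1 library.

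Subtracting the median of all genes reversed the medians, to -0.19 at the TSS and -0.061 at the TES, with 14 genes lower at the TSS and 4 higher and 5 lower at the TES. Of all genes 28.8% were then lower at the TSS, and 11.6% higher and 22% lower at the TES. Below 0 instead of above were then MRPL13 (-0.85), MRPL21 (-0.68), MRPL24 (-0.081), MRPL43 (-0.92), MRPS18B (-1.03), MTIF2 (-0.19), TFB1M (-0.59), TIMM44 (-0.44) and TOMM6OS (-0.26) at the TSS. At the TES these were GFM2 (-0.17), MRPL1 (-0.075), MRPL21 (-0.49), MRPL36 (-0.59), MRPL41 (-0.31), MRPL43 (-0.19), MRPL46 (-0.046), MRPL50 (-0.40), MRPL57 (-0.58), MRPS6 (-0.53), TIMM10 (-0.18), TIMM10B (-0.16), TIMM17A (-0.64), TIMM29 (-0.35), TIMM8B (-0.29) and TIMM9 (-0.23). Subtracting the median of the length group gave medians of -0.17 at the TSS, with 14 lower, and -0.026 at the TES, with 3 higher and 6 lower. It turned MRPL13 (-0.94), MRPL21 (-0.73), MRPL43 (-0.78), MRPS18B (-1.04), MTIF2 (-0.29), TFB1M (-0.76), TIMM44 (-0.35) and TOMM6OS (-0.17) below 0 at the TSS. At the TES it did so for MRPL21 (-0.68), MRPL36 (-0.64), MRPL41 (-0.32), MRPL43 (-0.20), MRPL46 (-0.20), MRPL50 (-0.55), MRPL57 (-0.60), MRPS18B (-0.026), MRPS31 (-0.061), TIMM10 (-0.23), TIMM10B (-0.21), TIMM17A (-0.81), TIMM29 (-0.39), TIMM8B (-0.30), TIMM9 (-0.38) and TIMMDC1 (-0.026).

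Dividing each column by its commonest TES ratio (1.03 for control, 2.68 for the knockout) was added after the data were seen. It turned the medians to -0.41 at the TSS, with 9 higher and 15 lower, and -0.60 at the TES, with 0 higher and 18 lower. Of all genes 22.3% were then higher and 36.2% lower at the TSS, and 2.62% higher and 46.4% lower at the TES. The medians of all genes became -0.22 and -0.53, so whether most genes are higher or lower depends on a scale that is not given.

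At the lower threshold 5 genes were lower at the TSS and 1 at the TES, and at 2-fold 12 were higher at the TES. Shares of all genes at these thresholds were not computed. With a pseudocount equal to the lowest value above 0, 5 of 36 were lower at the TSS, where 9.83% of all genes were. The log2 start-to-end medians were then 3.99 in control and 4.17 in Carm1 KO cells, with a median difference of 0.0029, against 3.74, 3.53 and -0.13 as reported. Without genes under percentile 10 of each column the TSS median was 1.09 with 1 lower, and the start-to-end medians 3.64 and 3.10, with a difference of -0.39. Without values shared with another gene, the TSS median over 11 genes was 1.78, with 10 higher and 0 lower, and the TES median 0.97. All genes left by this filter had medians of 1.21 and 0.89, with 77.5% higher and 2.87% lower at the TSS. The start-to-end medians over the 9 genes left were then 1.41 and 0.44, with a difference of -0.72.

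Without genes near another gene within 1 kb, the TSS median over 12 genes was 0.31 with 6 higher, and the TES median over 19 genes 0.67 with 10 higher. Without genes within 5 kb of an upstream end, also added later, the TSS median was 0.53 with 12 higher, and the start-to-end medians 4.33 and 4.52, with a difference of 0.47. Ribosomal proteins alone had a TSS median of 0.49 with 9 higher, 14 higher at the TES, and start-to-end medians of 3.64 and 4.10. The other 14 genes had medians of 1.38 at the TSS, with 10 higher and 1 lower, and 0.68 at the TES, with 10 higher, and a Carm1 KO start-to-end median of 3.31. Of all genes compared, with none left out, 71.2% were higher at the TSS and 66.7% at the TES.

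Depth is unknown, and 22 of 33 genes compared at the TSS and 12 of 36 at the TES carry a ratio exactly shared with another gene, so small changes of single genes are uncertain.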

Other observations

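Over all annotated genes the TSS ratio declined with distance from the end of the upstream protein-coding gene on the same strand. The median control ratio was 0.750 for 172 genes up to 1 kb away, 0.342 for 368 genes at 1 to 5 kb, 0.113 for 291 at 5 to 10 kb, 0.0706 for 876 at 10 to 50 kb and 0.0630 for 1361 farther away. In Carm1 KO cells the medians were 2.02, 1.31, 0.275, 0.138 and 0.126. A TSS ratio above the TES ratio was found in 22.3% of genes up to 1 kb away in control and 36.7% in Carm1 KO cells, and in 8.83% and 19.7% at 1 to 5 kb. Beyond 50 kb these shares were 0.423% and 1.10%. These genes were grouped by distance after the values of the mitochondrial genes had been seen.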
